A study of Mus musculus with 4 samples.

Results

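The regions described here are stretches of mouse liver chromatin carrying H3K27ac, acetylation of lysine 27 on histone H3, that were listed after partial hepatectomy (PHx), lay away from gene starts and had no counterpart in sham liver. They are the regions of the PHx list whose distance to the assigned transcription start site (TSS) was over 3 kb, here called distal, and that shared no base with any region of the sham list. This gave 942 of 2505 distal PHx regions (37.6%), out of 10170 PHx and 11602 sham regions in all. Over the whole PHx list 22.5% of regions, and among those within 3 kb of a TSS 17.5%, shared no base with sham, and 18.6% of distal sham regions shared none with PHx. The samples were 2 liver libraries of wild-type C57/BL6J mice 12 h after removal of 70% of the liver, and 2 of sham-operated mice of the same strain, for which the labels give no time and the design text speaks of 0 h. The labels give no age and do not say which animals the libraries came from. Each group has 1 merged list on GRCm39 without signal, so sequencing depth is not known, replicate error could not be computed and no test was possible. The members were chosen by their positions in these lists, so their number is a description.

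H3K27ac sits at active promoters and enhancers, where acetyltransferases such as p300 and CBP deposit it, and distal acetylated regions are commonly read as candidate enhancers. An enhancer can lie inside a gene or far from the gene it controls, so the gene named for a region below is the one the authors' annotation assigned, not a shown target. After partial hepatectomy the remaining hepatocytes leave quiescence and divide, and endothelial, stellate and Kupffer cells of the sinusoids send growth signals and later divide themselves. Intact pieces of liver were used, so more cells of a type and more acetylation per cell cannot be told apart in any region.

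The liver label was checked against marker genes of its cell types. Of 9 hepatocyte markers 8 were named in a list, and 7 of these had a region within 1 kb of the TSS in both groups and 1 in PHx only. Of 10 endothelial markers 7 were named, with the TSS covered in both groups for 1, in PHx only for 5 and in neither for 1. The stellate cell and fibroblast list had 2 of 10 named (1 in both, 1 in PHx only) and the Kupffer cell and macrophage list 4 of 9 (3 in both, 1 in PHx only). None of the 9 neutrophil, monocyte and lymphocyte markers was named. The part of such shifts at marker promoters in the distal regions was not tested.

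Sequences of the regions themselves were not analysed here. Shown instead are promoters of Fgd5 and Rin2, since both genes carry 3 of the regions and have a PHx region and no sham region at the TSS. They come from RefSeq (GRCm38.p6, plus strand, 300 bases around a start), and were not matched to the GRCm39 start in the lists. Capitals mark a CCAAT box, searched as CCAAT on both strands and present in 37.4% of all 32851 promoters of that table.
Fgd5: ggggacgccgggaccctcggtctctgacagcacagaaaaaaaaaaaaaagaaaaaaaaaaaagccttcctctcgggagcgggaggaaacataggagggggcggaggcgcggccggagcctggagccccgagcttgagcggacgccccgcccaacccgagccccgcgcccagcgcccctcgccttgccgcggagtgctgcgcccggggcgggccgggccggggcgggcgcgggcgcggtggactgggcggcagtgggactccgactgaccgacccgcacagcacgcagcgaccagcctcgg
Rin2: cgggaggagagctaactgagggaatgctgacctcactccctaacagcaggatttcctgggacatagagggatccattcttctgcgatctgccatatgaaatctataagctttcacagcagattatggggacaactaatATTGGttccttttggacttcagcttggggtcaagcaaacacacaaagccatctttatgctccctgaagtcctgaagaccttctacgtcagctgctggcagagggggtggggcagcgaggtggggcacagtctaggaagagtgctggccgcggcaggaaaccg
The Fgd5 sequence had a GC content of 71.3% and held neither a CCAAT box nor the letters CCGGAA of an ETS site, which 14.9% of promoters hold, on either strand. The Rin2 sequence had a GC content of 52.3% and held the CCAAT box on its minus strand.

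MicroRNA genes were assigned to some of the regions, and for 13 of 15 mature sequences were read from the RefSeq table (GRCm38.p6). The following were chosen after their values were seen, as the conserved arms among them, with the seed (bases 2 to 8) in capitals; no seed is shared between them.
mmu-miR-146a-5p: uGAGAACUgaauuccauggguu
mmu-miR-103-3p: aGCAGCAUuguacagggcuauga
mmu-miR-331-3p: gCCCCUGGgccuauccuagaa
mmu-miR-505-3p: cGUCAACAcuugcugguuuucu
The region assigned to Mir146, whose product is known as a brake on innate immune signalling, measured 12382 bp (chr11:43238420-43250801), lay 14487 bp downstream of the TSS and was 262940 bp from the nearest sham region. Those of Mir103-2, Mir331 and Mir505 measured 10157, 9537 and 9687 bp and lay 39577, 51263 and 47448 bp from sham. All 4 lay farther from sham than the median given next, but they were picked. Of the others with a sequence, Mir3092 (47590 bp) and Mir7689 (130154 bp) also lay farther. Nearer than that median lay Mir6541 (3188 bp), Mir6935 (4754 bp), Mir1945 (7496 bp), Mir5101 (7679 bp), Mir5623 (8358 bp), Mir6344 (9588 bp) and Mir1903 (14733 bp).

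By the rule every region had a gap to sham, and only the size of that gap is described here. The gap to the nearest sham region had a median of 27591 bp (quartiles 9661 and 71866 bp). It was under 1 kb for 13 regions, under 5 kb for 130 (13.8%), within 10 kb for 247 (26.2%) and over 100 kb for 177 (18.8%). For 9 no sham region lay within 1 Mb. In the converse direction, distal sham-only regions had a median gap to the nearest PHx region of 15019 bp (13584 to 17654 bp). Near the limit of the rule stood a region assigned to Slc66a2, 43 bp from sham, and an exonic region of Pparg, the adipogenic nuclear receptor, 62 bp from sham; just outside it, a region at Slc6a6 was left out for 67 shared bases. At the distance limit the nearest region inside lay 3067 bp from the TSS of Gm25514 and the nearest outside at -2993 bp, upstream of that of 4933411G06Rik. The farthest from sham, at 2103270 bp, was a 13675 bp region (chr7:51533491-51547165) in the 5' UTR of Gas2, a growth-arrest gene that encodes a cytoskeletal protein. Next came 1700110C19Rik (1688285 bp), Gm13914 (1148668 bp), an intron of the glutamate receptor gene Grm7 (1119505 bp) and intron 1 of Pdzrn3 (1073325 bp), which encodes a ubiquitin ligase. The isolated regions were mostly of modest width, 7038 to 13675 bp.

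The regions had a median width of 12174 bp (95% order-statistic interval 11876 to 12502 bp; quartiles 9761 and 16411 bp; range 3754 to 49095 bp), and covered 12646859 bp together. The 1563 distal PHx regions that did overlap sham were wider and had a median of 13873 bp (13485 to 14276 bp), and the 695 distal sham regions without PHx overlap one of 6287 bp (6179 to 6465 bp). A wide region overlaps more easily, so the first of these differences moves with the rule. The second is not particular to these regions. Distal sham regions that did overlap PHx were also narrower than their PHx counterparts, with a median of 8141 bp (8021 to 8277 bp) against 13873 bp. Only 15 regions exceeded 30 kb. The widest (49095 bp, chr9:102903321-102952415) was assigned to Gm22595 but lay over exon 2 of Slco2a1, a prostaglandin transporter. Next by width were an intron of the kinase gene Map4k4 (41050 bp, chr1:39954308-39995357, 197411 bp from sham), the long noncoding RNA gene Morrbid (41028 bp, assigned to Gm14010), the potassium channel gene Kcnq1 (38174 bp, assigned to Gm28821) and intron 2 of the phosphatase gene Ctdspl (35598 bp, 131779 bp from sham). The mTOR inhibitor gene Deptor (35505 bp, assigned to Gm26296) and Maml1, a Notch coactivator gene (32451 bp, assigned to Ltc4s), followed, beside Prkch and Rin2, which are described below. Of these 10, 6 were assigned to a gene other than the one they cover.

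**Figure D1:**
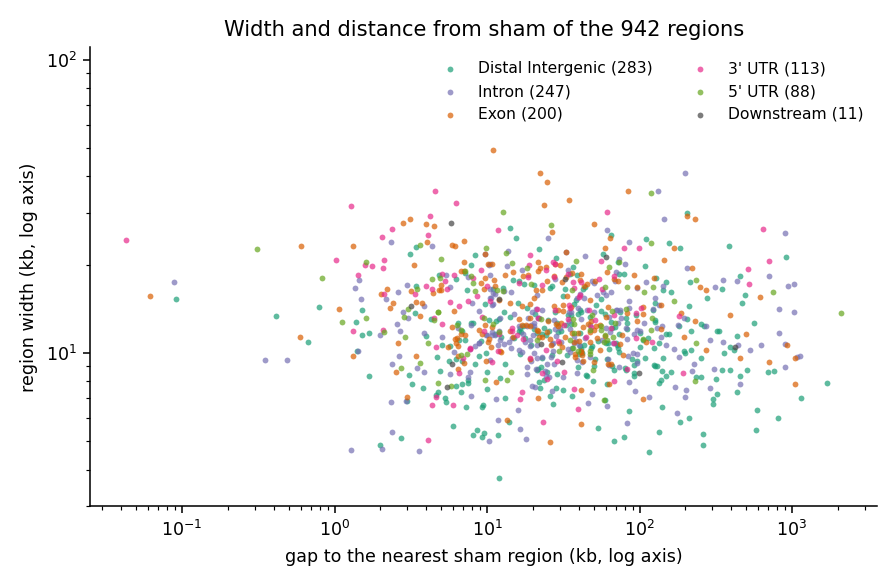
Each point is 1 of the 942 regions, with the gap to the nearest sham region on the x axis and the region's width on the y axis, both in kb on log axes, coloured by annotation class. Width spans 3754 to 49095 bp and gaps run from 43 bp to 2103270 bp.

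By the authors' annotation, which gives 1 class to each region although a region of this width can touch several, the regions were distal intergenic more often than those overlapping sham. Intergenic regions numbered 283 (30.0%, exact Clopper-Pearson 95% interval 27.1 to 33.1%), against 24.1% (22.0 to 26.3%) of overlapping distal PHx regions and 24.6% (21.4 to 28.0%) of distal sham-only regions. Introns held 247 (26.2%, 23.4 to 29.2%), against 22.7% and 30.1%, and exons 200 (21.2%, 18.7 to 24.0%), against 24.6% and 25.04%. The 3' UTR class, with 113 regions (12.0%, 9.99 to 14.2%), was the smaller share against overlapping regions (17.9%, 16.04 to 19.9%), and near the 13.1% of sham-only regions. The 5' UTR class had 88 (9.34%) and the class just downstream of genes 11 (1.17%). For intergenic and 3' UTR regions the intervals of the 2 PHx sets did not overlap, while for the other classes they did. Only counting error enters these intervals, because a region is no replicate of a group and neighbouring regions are not independent.

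**Figure D2:**
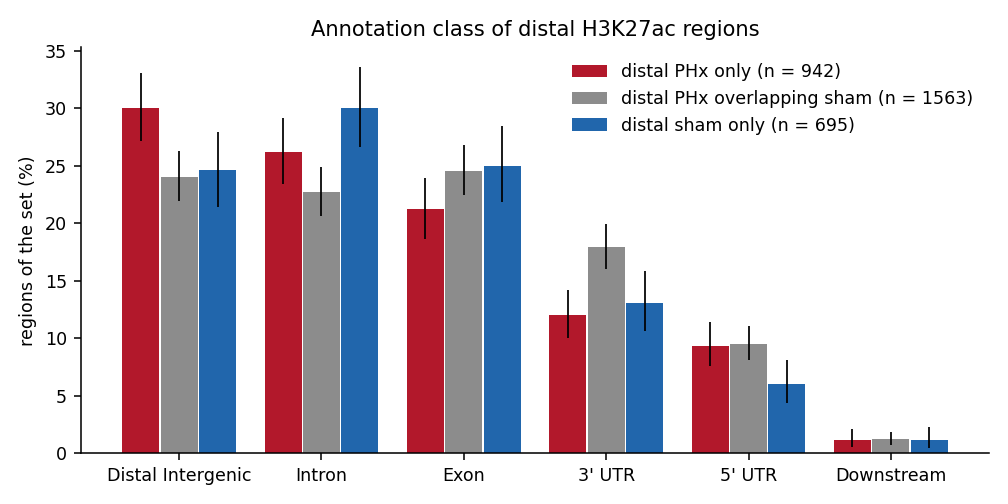
Bars give the percentage of each set in each annotation class, for 942 distal PHx-only, 1563 overlapping distal PHx and 695 distal sham-only regions, and lines are exact 95% intervals. The distal PHx-only set has the highest intergenic bar (30.0%) and the lowest 3' UTR bar (12.0%).

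The classes also differed in width and isolation. Intergenic regions were narrow and remote, with a median width of 10817 bp and a median gap to sham of 39752 bp, whereas 3' UTR regions had medians of 14594 and 18588 bp. Introns lay between, with 11734 and 27632 bp, and exons had 13606 and 24944 bp. Of the 247 intronic regions 152 (61.5%, 55.2 to 67.6%) were in intron 1 or 2 of the named transcript, near the 65.6% of overlapping and 65.6% of sham-only intronic regions. Among the widest UTR regions was that in the 5' UTR class at Nedd4l, a ubiquitin ligase gene (30311 bp). The widest downstream regions lay beside Gm40093 (27661 bp), Coq2, a ubiquinone synthesis gene (21168 bp), and Wnt4, a Wnt ligand gene (17862 bp).

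Distances to the assigned TSS had medians with overlapping intervals in the 3 sets. The median was 17711 bp (16381 to 19548 bp), against 16078 bp (15131 to 16936 bp) for overlapping and 16131 bp (14918 to 17223 bp) for sham-only regions. Upstream of the TSS lay 42.7% (39.5 to 45.9%), against 39.3% and 39.0%. Beyond 100 kb lay 32 regions, the farthest 676157 bp upstream of Gm20387, within Grm7; next were regions within Rad51b, a DNA repair gene (233582 bp from the TSS of Gm36048), and Ptprg, a receptor phosphatase gene (223843 bp from that of LOC118568097). A region of 27727 bp in Ext1, a heparan sulfate polymerase gene, lay 211056 bp into that gene but only 2807 bp from sham.

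Within the PHx list itself, the regions lay farther from their neighbours than the overlapping ones. The nearest other PHx region was a median of 16257 bp away (14743 to 18950 bp), against 10645 bp (9621 to 11567 bp) for overlapping distal regions, and the nearest PHx region within 3 kb of a TSS was 32394 bp away (28138 to 37680 bp), against 20675 bp (18696 to 23013 bp). For sham-only regions the same medians within the sham list were 19194 bp (16670 to 21798 bp) and 36510 bp (32461 to 42745 bp). These gaps were not computed for overlapping distal sham regions, so the sham list gives no matching comparison. The assigned TSS (with 1 kb on each side) was covered in neither list for 560 regions (59.4%, 56.2 to 62.6%), against 49.8% (47.3 to 52.3%) of overlapping ones. It was covered in both lists for 253 (26.9%), in PHx only for 106 (11.3%, 9.31 to 13.4%) and in sham only for 23 (2.44%). The share in PHx only was near that of overlapping regions (10.5%, 9.02 to 12.1%). These counts concern the 1 TSS each region was assigned to, and another start of the same gene can be covered, as at Erg below. Counted by gene, 505 of 862 assigned genes (58.6%) had no region within 3 kb of a TSS assigned to them in either list, against 695 of the 1390 genes of overlapping regions and 57.5% of the 663 genes of sham-only regions.

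All of the regions lay on chromosomes 1 to 19 and X. As a share of each autosome's distal PHx regions they ran from 25 of 90 on chromosome 16 (27.8%, 18.9 to 38.2%) to 66 of 139 on chromosome 10 (47.5%, 39.0 to 56.1%). Chromosome 6 held the most, 84 of 202 (41.6%). On the X chromosome 5 of 6 distal regions were among them. The extremes stand apart only at their intervals' edges, and all but chromosome 10 have intervals that include the overall 37.6%.

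**Figure D3:**
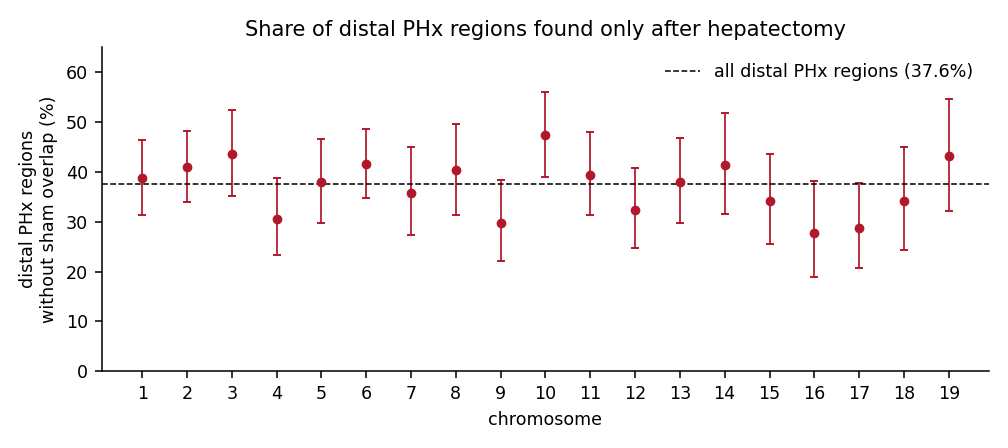
Points give, for chromosomes 1 to 19, the percentage of distal PHx regions that share no base with sham, with exact 95% intervals as lines and the overall 37.6% as a dashed line. Shares run from 27.8% on chromosome 16 to 47.5% on chromosome 10, and the interval of chromosome 10 alone lies above the line.

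Some of the regions formed groups along the chromosome. Joining those with gaps of at most 50 kb gave 79 clusters with 174 regions (18.5%), 68 of them pairs and 9 triples. The share in clusters was 29.2% for the more numerous overlapping regions and 11.5% for the less numerous sham-only regions, and the number in a set by itself raises such a share. In 71 of 79 clusters no sham region lay inside, and 21 had none within 50 kb of a member. The first count largely follows from the rule, since a sham region could lie only in the gaps between members.

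The largest cluster lay downstream of Maf, a bZIP transcription factor gene of the large Maf family, and held 7 regions with 111121 bp of the 271482 bp of chr8:116138568-116410049. All 7 were annotated as distal intergenic, 5 assigned to the small RNA gene LOC115487016 and 2 to Maf. Counted from the Maf TSS in the direction of its transcription, they began 23.6, 52.7, 84.4, 141, 159, 207 and 280 kb downstream, with widths of 11731, 9037, 13133, 8113, 23688, 30002 and 15417 bp. The Maf TSS itself was covered in both groups, by a sham region of 5359 bp and a PHx region of 29173 bp (assigned to Gm30712). The nearest sham region to any of the 7 was 21189 bp away, so the series of regions extends from an already listed promoter into a stretch with no sham region.

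At Fgd5, which encodes a guanine nucleotide exchange factor of endothelial cells, 3 regions of 24688, 16863 and 19047 bp filled 60598 of the 67515 bp of chr6:91977882-92045396. They lay over exons 3, 4 and 6 of the gene, although those of 16863 and 19047 bp were assigned to Nr2c2. A PHx region of 27684 bp covered the Fgd5 TSS, where no sham region was listed, and the nearest sham region was at the start of Nr2c2, 21550 bp beyond the last of them. The whole block from promoter to gene body was therefore in the PHx list alone.

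Rin2, a gene for a Rab5 exchange factor, had regions of 12649 bp in intron 3, 35177 bp in the 5' UTR class and 8558 bp in the 3' UTR class (chr2:145634993-145728640). A PHx region of 12228 bp covered the TSS, and the cluster was 106223 bp away from sham. In Prkch, which encodes protein kinase C eta, regions of 35568 bp over exon 4 and 33126 bp over exon 11 (chr12:73702798-73787572) filled 68694 of 84775 bp. A PHx region of 39491 bp covered the Prkch TSS, and the sham list had none there. Rin2 and Prkch thus had the same arrangement as Fgd5.

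Erg, an ETS transcription factor gene of endothelial cells, carried 2 regions, 9172 bp (chr16:95220165-95229336) in intron 1 and 16364 bp (chr16:95168516-95184879) over exon 3. They began 30.3 and 74.8 kb downstream of the most upstream TSS listed, over which the PHx list had a region of 31257 bp. The sham regions nearest to them lay 228976 and 273433 bp away. Tcf7l2, a transcription factor gene of the Wnt pathway, differed in that its 2 regions (21789 and 17581 bp, both in intron 4, chr19:55809510-55866070) followed on a stretch of the same gene acetylated in both groups, with the nearest sham region 9684 bp away.

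**Figure D4:**
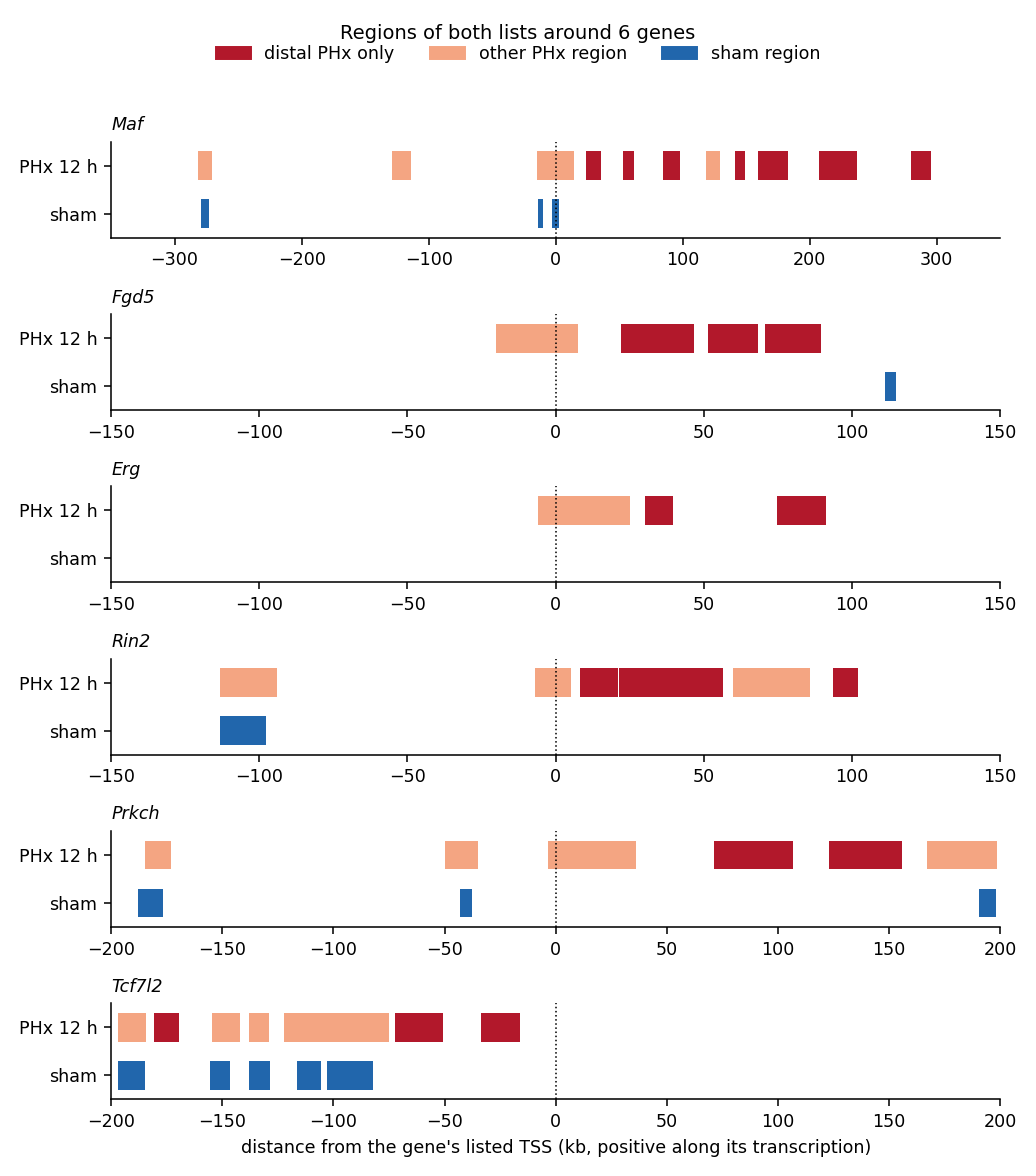
Regions of the PHx and sham lists around 6 genes, drawn as bars against the distance in kb from the gene's most upstream listed TSS (dotted line), positive in the direction of transcription. For Tcf7l2 that start lies inside the gene, so its regions in intron 4 fall at negative distances. Dark red marks distal PHx-only regions, light red other PHx regions and blue sham regions; Maf has 7 dark red bars downstream of a TSS covered in both groups, and Erg has no blue bar.

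The other clusters were smaller. At Cradd, a gene for a caspase adaptor, 4 regions assigned to Gm29684 filled 70387 of 80514 bp (chr10:94992956-95073469). Triples lay in Ttc28 (43562 bp, assigned to Gm35628), in 2610035D17Rik (42050 bp, assigned to Gm39467), upstream of the ubiquitin ligase gene Znrf2 (34342 of 39922 bp) and in Phlpp1, a phosphatase gene that acts on Akt (33009 bp). The Znrf2 cluster was the closest of these to sham, at 4299 bp, and the TSS of Znrf2 was covered in both groups.

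Counted by assigned gene, 69 of 862 genes (8.0%) had 2 or more of the regions, against 10.9% of the 1390 genes of overlapping regions and 4.37% of the 663 of sham-only regions. LOC115487016 had 5 and Gm29684 had 4. With 3 each followed Gm35628, Gm39467, Gm46803, Znrf2, Pdzrn3 and Gm38811, and with 2 each Gm14010 (54132 bp together) and Dysf (52492 bp), the gene of the membrane repair protein dysferlin. Of 447 regions annotated to an exon or intron, 217 (48.5%) were assigned to a gene other than the one they cover, against 44.7% of overlapping and 39.7% of sham-only regions, with overlapping intervals (43.8 to 53.3% here, 41.0 to 48.3% and 34.8 to 44.8% there). Counted by the covered gene, a count added after the data were seen, Maml3, a Notch coactivator gene, had 5 (10838 to 17653 bp), and Prkce, the gene of protein kinase C epsilon, had 4 (8635 to 16165 bp). Both genes also held overlapping distal regions, 3 in Maml3 and 4 in Prkce, whereas Fgd5, Prkch and Erg held 0. By RefSeq's gene table (GRCm38.p6, names only), 438 of the 862 assigned genes were protein coding (50.8%, 47.4 to 54.2%). Long noncoding RNAs were 265 (30.7%), and 35 names found no match. These shares were close to the 54.0% and 31.1% of overlapping regions. Genes of sham-only regions were protein coding more often (59.7%, 55.9 to 63.5%), and 27.3% were long noncoding RNAs.

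For genes of known roles, the share with such a region was near the background. Of 2114 genes assigned any distal PHx region, 862 (40.8%) had one that shared no base with sham; of the 94 such genes on the 23 lists of liver cell types and pathways, 35 did (37.2%). Counting also genes that lie under a region gave 54 of 128 (42.2%), beside 41.7% over all genes. The lists were small, so their counts are given as descriptions.

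Among genes of the sinusoidal cells, 4 of 9 endothelial genes with a distal PHx region had one of these: Erg, Stab2, a scavenger receptor of sinusoidal endothelium (16545 bp over exon 16, chr10:86772061-86788605, 9584 bp from sham), Cd93 (9685 bp, 181451 bp from sham) and the ETS factor gene Ets1 (18339 bp, 7863 bp from sham). A further ETS gene, Fli1, lay under a region of 17134 bp, 19432 bp from sham. Of the 10 endothelial genes assigned a distal sham region 0 had a sham-only one, where 22.6% of all such genes did, so the count is small. In the stellate cell and fibroblast list Gata6 (17441 bp, 150034 bp from sham) and Nid1, a basement membrane gene (9165 bp), were assigned one, and Col4a1, Mylk and Tpm1 lay under one. That list also had sham-only distal regions, at Col6a2, Mylk and Tpm2, so it is found on both sides. In the Kupffer cell and macrophage list 1 gene had a distal PHx region and 0 of these.

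Genes of growth control showed a mixed picture. In the growth factor and mitogen list 6 of 12 genes had such a region, among them the kinase gene Map4k4, the insulin receptor substrate gene Irs2 (20084 bp), the adaptor gene Gab1 (14031 bp), the ligand gene Pdgfc (11678 bp, 821721 bp from sham) and the PI3 kinase subunit gene Pik3r1 (12638 and 10545 bp). The same list had sham-only distal regions at 4 genes, Pik3r1 again among them. Of 8 Wnt pathway genes 3 had one, the receptor gene Fzd5 (16990 bp), the coreceptor gene Lrp6 (23161 bp over exon 4) and Tcf7l2. A sham-only region was found at 0 of the 10 Wnt genes assigned a distal sham region, where 22.6% of all such genes had one. Hippo and actin genes counted 2 of 4 by assignment (Ctdspl and the TEAD factor gene Tead4, 15399 bp) and 7 of 10 with covered genes, which added Lats2, Lpp, Myo1e, Tead1 and Vcl. Sham-only distal regions of that list lay at Lpp, Myh9 and Ptk2, so Lpp was on both sides. In the immediate early and AP-1 list all 3 genes with a distal PHx region had one that shared no base with sham. These were Maf, Gadd45g, a stress-induced growth arrest gene (26675 bp, 81866 bp from its TSS), and the kinase gene Plk2 (10947 bp). Of the cell cycle list 1 gene was assigned a distal PHx region and 0 one of these. With covered genes the count was 2 of 3, beside 41.7% over all genes. Those lying under one were Ccnd3 (10189 bp) and Cdk6 (8830 bp), both G1 genes. Ccnd1 and again Cdk6 had sham-only distal regions.

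Among hepatocyte functions, bile acid genes had the larger counts and lipid, glucose and urea genes the smaller ones. Of 4 bile acid genes 3 had such a region. That of Cyp7a1, whose product sets the pace of bile acid synthesis, was 8566 bp wide. It was in the class just downstream of genes (chr4:6256029-6264594, 99495 bp from sham). The others were Nr1h4, the bile acid receptor (14930 bp over exon 3, 3407 bp from sham), and Slco1a1, an uptake transporter (6517 bp). Cyp7b1, another enzyme of the pathway, lay under a region of 12367 bp and also under a sham-only distal region. Of 9 lipid synthesis and storage genes 1 did, Lipc, the hepatic lipase (18026 bp), while Elovl3 and Insig1 of that list had sham-only distal regions. Of 7 glucose, urea and amino acid genes 0 did, although Ass1, a urea cycle enzyme, lay under a region of 26260 bp. In the fatty acid oxidation list Ppargc1a had 2 (13121 and 8810 bp), and Pdk4, which restrains glucose oxidation, had 1 (6710 bp, 305223 bp from sham). Plasma protein genes with such a region were Gc, the vitamin D binding protein (21692 bp, 98653 bp from its TSS), and Hpx. The clock list had 2 genes with a distal PHx region and 0 of these. Of the remaining lists, hepatocyte transcription factors had 2 of 8 (Gata6 and Nr1h4), NF-kB and TNF signalling 1 of 4 (Cflar, a caspase inhibitor gene), IL-6, STAT3 and acute phase 1 of 1 (Il1rap, an interleukin-1 receptor subunit gene), xenobiotic metabolism 2 of 4 (the aryl hydrocarbon receptor gene Ahr and Aldh1a1) and chromatin and acetylation 3 of 8 (Kat6b, Med13l and Smarca2). Genes of other tissues had 0 of 3. The TGF-beta, neutrophil and lymphocyte, and cholangiocyte lists had no gene assigned a distal PHx region, although 4 TGF-beta genes lay under one and 2 of these, Smurf2 and Tgfbr3, under one that shared no base with sham. In all, 23 of the 167 listed genes assigned a distal sham region had a sham-only one, where 22.6% of all genes assigned a distal sham region did; Il1rap was on both sides.

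**Figure D5:**
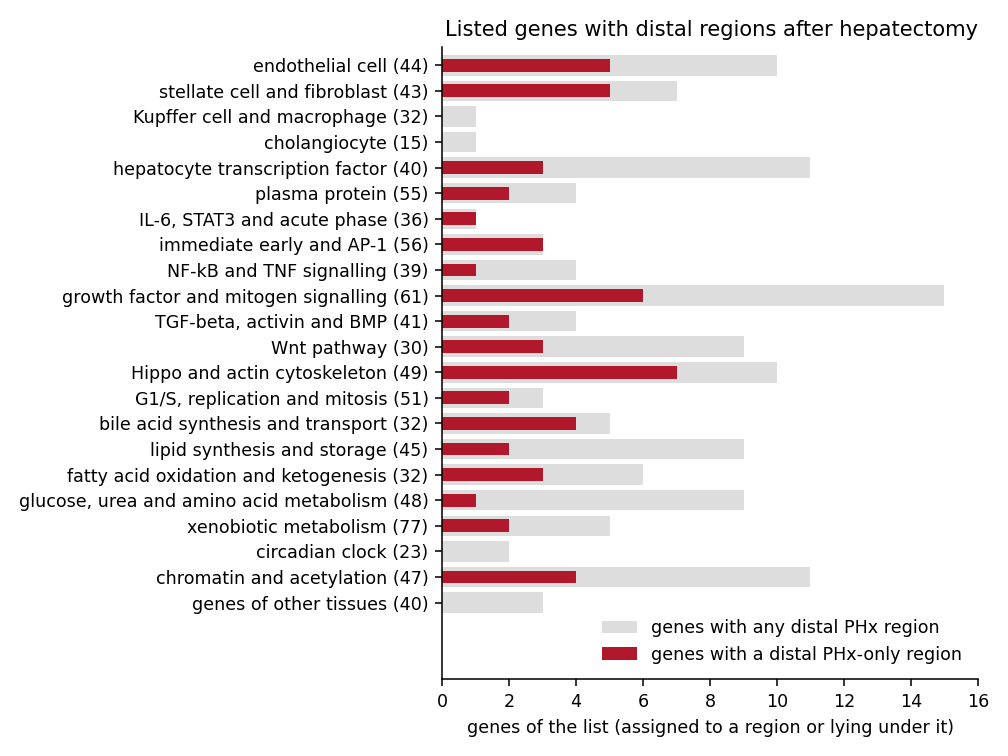
Grey bars give the number of genes of each list assigned to or lying under any distal PHx region, and red bars those with a distal PHx-only region, with the list's size in brackets. The endothelial list has 5 of 10, the Hippo and actin list 7 of 10, the stellate cell and fibroblast list 5 of 7 and the bile acid list 4 of 5. Glucose, urea and amino acid metabolism has 1 of 9. The share over all genes is 41.7%, and the lists are small.

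Transcription factor genes, by the family column of the authors' table, were 40 of the 862 assigned genes (4.64%, 3.34 to 6.27%), near the 4.39% of overlapping and the 3.92% of sham-only regions. They included 4 of the ETS family, namely Erg, Ets1, Elf1 (12525 bp) and Etv4 (11303 bp), where Elf1 and Etv4 were chosen after their values were seen. That is 0.464% of the genes (0.127 to 1.18%), against 3 of 1390 (0.216%, 0.0445 to 0.629%) for overlapping regions, with overlapping intervals. The HMG family also had 4 (0.464%), against 0 of 1390 for overlapping and 3 of 663 (0.452%) for sham-only regions. The C2H2 zinc finger family had 8 (0.928%), against 0.719% and 0.754%.

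The per-library peak numbers in the tables show how far each library of sham could have held signal outside its list. Peaks are numbered in genomic order, and a number missing between neighbouring sham regions stands for a peak of that library which entered no listed region. Of the 942 regions 58 (6.16%, 4.71 to 7.89%) lay in stretches where neither sham library missed a number, 419 (44.5%) where exactly 1 library did and 465 (49.4%) where both did. In the converse count, of the 695 distal sham-only regions against the PHx libraries, 140 (20.1%) had no missing number, 408 (58.7%) those of exactly 1 library and 147 (21.2%) those of both. Missing numbers were more common in sham, where 73.3% and 71.4% of the peaks of the libraries were in listed regions, than after PHx, where 87.6% and 78.8% were. The stretches are long, with medians of 90366, 159259 and 296689 bp, so a missing number need not lie at the region, and whether sham peaks lie under the regions was not tested. The 5 widest of the 58 were those of Gc (21692 bp), Gm15337 (19734 bp), Gm11185 (19098 bp), Gm34828 (18493 bp) and Farp1, a neuronal and adhesion-related exchange factor gene (18483 bp over intron 2). Intergenic regions were 21 of these 58 (36.2%, 24.0 to 49.9%). The clusters at Maf, Fgd5, Rin2, Prkch and Erg are not among the 58. Of all 942 regions 917 (97.3%) joined 1 peak of each PHx library, against 90.4% of overlapping distal regions, so few were pieced together from several peaks.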

How the data were processed

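H3K27ac was profiled by CUT&Tag, in which antibody-bound transposase cuts DNA at the mark, in 2 sham and 2 PHx libraries of flash-frozen mouse liver (150 bp paired-end reads, per the labels' protocols). Bowtie2, SEACR, ChIPseeker and DiffBind, without versions or roles, and the builds GRCm39 and mm39 are named per the submitters' processing notes. Per the file headers, the authors deposited 1 region list per group with start, end, width and distance to the TSS in bp, an annotation class, an assigned gene and the numbers of the peaks joined from each library. Calling thresholds: not given in the sources used here. A peak found in 1 library alone is not listed, and joined peaks widen a region.

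The members and the 23 gene lists were chosen with earlier results of these data known. Overlap (1 shared base), gaps, clusters (50 kb) and counts were computed with Python 3.11.15 and pandas 2.3.3, and checked on simulated regions against bedtools 2.31.1. Shares have exact Clopper-Pearson 95% intervals (scipy 1.17.1) and medians order-statistic 95% intervals, for counting error only. Comparison sets were overlapping distal PHx and distal sham-only regions. Named were the widest, most isolated, nearest, farthest and most clustered regions, the genes with most regions, and the listed genes with one. The loci drawn, microRNA arms and covered-gene counts were selected after values were seen. Alternatives were other definitions of overlap, distance and linkage. Region sequences were not analysed here. Values of some listed genes are not reported here.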

Additional observations from a re-analysis of the deposited data

How the results depend on the processing

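Of 35 recomputed values 17 stayed near the reported one, meaning counts within 1.5 times and medians or shares within their 95% interval, and 18 moved. Some of the 17 were largely fixed beforehand by the rule or by the gaps given above. A limit of 3 kb from every listed gene start again gave 942 regions, and counting sham regions within 1 kb as shared gave 929. Requiring a reciprocal overlap of 50% raised the number of regions from 942 to 1538, those in clusters from 174 to 409, genes with several regions from 69 to 142 and listed genes from 35 to 63. It changed the median width to 14166 bp, the intergenic share to 25.9% and the share with a PHx region at the assigned TSS from 38.1% to 41.9%, since regions that meet sham in part then count. Treating a sham region within 20 or 50 kb as shared left 557 and 318 regions, and stretches without missing sham peak numbers left 58. With sham regions within 5 kb counted as shared the share with a PHx region at the assigned TSS was 33.6%. With a distance limit of 10 kb that share was 41.8% and the median distance to the TSS 25284 bp, which the limit itself raises. Links of 20, 100 and 200 kb put 92, 266 and 377 regions in clusters. Taking only PHx regions near a TSS as neighbours, the median gap was 32394 bp in place of 16257 bp. Counting listed genes under a region gave 54 in place of 35, an alternative chosen after seeing the data. No paired analysis was possible because each group has 1 merged list, in which a library has peak numbers but no signal or coordinates of its own, and for the same reason leaving out a library was not run. The planned sequence comparison was not run. Depth is unknown, so how far it limits these lists cannot be given.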
